A study of Mus musculus with 6 samples.

Results

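Urothelial cells of the obstructed mouse kidney are described here, the lining cells of the renal pelvis that were caught in whole-kidney suspensions. Members were chosen by their own counts. A barcode with at least 200 genes and at most 50% mitochondrial UMIs (unique molecular identifiers, 1 per captured mRNA molecule) was a member with at least 4 UMIs summed over Upk1a, Upk1b, Upk2, Upk3a, Krt5 and Krt15. It also had under 4 UMIs of the principal cell genes Aqp2, Aqp3, Aqp4, Hsd11b2, Scnn1b and Scnn1g, or at least 2 UMIs of Krt5 plus Krt15. At most 5 UMIs of the macrophage genes C1qa, C1qb and C1qc were allowed. The rule found 86 members among 23578 kept barcodes, which is 0.365%.

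The libraries came from C57BL/6 mice with 1 ureter ligated (unilateral ureteral obstruction, UUO), and kidneys were taken at day 7. The SH045 group (n = 3 mice) had received the compound SH045, which the series title ties to inhibition of the cation channel TRPC6, and the Vehicle group (n = 3 mice) had received vehicle. No genotype other than the strain, no age and no dose is given in the labels, and all 6 kidneys were obstructed. Contralateral kidneys and spatial samples of the series were not analysed here. Cells were captured on barcoded beads in a microfluidic chip with 6000 cells targeted per library.

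The urothelium is a stratified epithelium that seals the urinary space. Its basal cells carry keratin 5, keratin 14 and the transcription factor p63, its intermediate cells carry keratin 5 together with uroplakins, and its superficial umbrella cells cover their apical face with plaques of uroplakins. Principal cells of the collecting duct, which drain into the same pelvis, take up sodium through the channel ENaC and water through aquaporins, and serve here as the reference class.

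The libraries held between 21186872 and 32256602 UMIs and between 3420 and 4265 kept barcodes. Members had a median of 7954 UMIs, against 7513 in the 1779 principal cells (at least 4 UMIs of the 6 principal cell genes, under 4 of the urothelial genes, under 2 of Krt5 plus Krt15 and at most 5 of C1q) and 3573 in the 10101 barcodes with over 5 C1q UMIs, called macrophages below. The median mitochondrial share was 3.10% in members and 6.96% in principal cells. Of 12 urothelial markers listed, 12 were detected in members, as were 10 of 10 macrophage, 12 of 12 proximal tubule and 10 of 10 intercalated cell markers, so detection alone did not tell the classes apart. The summed level of the 12 urothelial markers was 14257 to 20719 CPM in 5 libraries and 2957 CPM in Vehicle replicate 2. These markers include the urothelial genes of the rule, so their detection and level follow in part from the rule. Injured tubule markers, Krt8, Krt18 and Spp1 among them, summed to 14438, 8524 and 4792 CPM in SH045, against 7745, 1208 and 16473 CPM in Vehicle. Intercalated cell markers summed to 6996 CPM in Vehicle replicate 2. Of 12 mesothelial markers, Lrrn4, Gpm6a, Wt1, Muc16, Rspo1 and Nkain4 had 0 UMIs in the 86 members. The other 6 were detected, with 5495 UMIs of Krt19, 195 of Msln, 142 of Upk3b, 48 of C3, 47 of Slpi and 3 of Bnc1.

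Several members stood apart, and some results below are given with and without them. Layer genes across members are described without them. Single genes set against principal cells are mostly given with them alone. In 16 members, at least 0.5% of UMIs came from markers of another class, MHC class II genes or immunoglobulin genes. These were plasma cell genes in 2 members, where they made up 55.4% and 78.4% of UMIs. MHC class II genes led in 3, proximal tubule in 3, T and NK cell in 2, thick ascending limb in 2, intercalated cell in 2, fibroblast in 1 and macrophage in 1. Of the 16, 7 were in Vehicle replicate 3, and 9 had under 10 UMIs of the 6 urothelial genes, against 3 of the other 70 members. The 70 are called unmixed below. The markers that define mixed cells include Umod, Slc12a1, H2-Aa, H2-Ab1, Cd74 and the macrophage markers. Lower values of these genes without mixed cells follow in part from that definition. By the same measure 893 of 1779 principal cells (50.2%) were mixed, 577 of them with intercalated cell markers and 284 with distal convoluted tubule markers. SH045 replicates 1 and 2 shared 52 barcode sequences whose profiles had a median correlation of 0.687, against 6 to 20 shared sequences and median correlations of 0.380 to 0.487 in the other 14 pairs of libraries. Of the members in SH045 replicate 1, 3 had such a shared sequence, with 2521, 3116 and 3628 UMIs, and their counterparts in SH045 replicate 2 had 20875, 27988 and 34372 UMIs.

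Near the limit of the rule, 12 kept barcodes had 3 urothelial UMIs and stayed outside, while 6 members had 4 and 1 member had 5. Of 102 kept barcodes with at least 4 urothelial UMIs, 12 had over 5 C1q UMIs, and 5 had at least 4 principal cell UMIs without the keratins. Among those left out were barcodes in Vehicle replicate 3 with 117 and 142 uroplakin UMIs, the first with 5 UMIs of Aqp3 and the second with 9 C1q UMIs. Aqp3, a water and glycerol channel, made up 689 of the 787 principal cell UMIs in members (87.5%), against 12.1% in principal cells. Aqp2, the vasopressin-regulated water channel, had 3 UMIs in members, and Hsd11b2, the enzyme that shields the mineralocorticoid receptor, had 0.

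The genes of the rule are described with no test. Upk1b, a uroplakin tetraspanin, had a UMI in 58 of 86 members (67.4%), in 1 of 1779 principal cells (0.0562%) and in 9 of 10101 macrophages (0.0891%). Upk3a, the uroplakin that pairs with Upk1b in the plaque, was seen in 43 members (50%), and in 0.225% of principal cells and 0.0891% of macrophages. Krt5, the basal keratin, was seen in 53 members (61.6%), in 0.169% of principal cells and in 0.0495% of macrophages. Krt15, a second basal keratin, was seen in 54 members (62.8%), in 0.225% of principal cells and in 0.109% of macrophages. The levels differed by library. Krt5 stood at 2159.7, 1094 and 2337 CPM (counts per 1000000 UMIs summed over the members of a library) in SH045 replicates 1 to 3, against 2319.7, 31.8 and 44.7 CPM in Vehicle replicates 1 to 3. Krt15 stood at 1938, 1663 and 1892 CPM in SH045, against 3931, 890.4 and 2477 CPM in Vehicle. Vehicle replicate 3 was low for Krt5 and not for Krt15, and Vehicle replicate 2 held only 3 members. Upk3a stood at 1015, 1652 and 979 CPM in SH045, against 320.3, 127 and 801 CPM in Vehicle.

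Within the 70 unmixed members, uroplakin genes varied together, and so did Krt5 and Krt14. Spearman's rho over the 70 cells was 0.80 for Upk3a with Upk2, 0.75 for Upk2 with Upk1b, 0.79 for Psca with Upk3a and 0.76 for Krt14 with Krt5. It was -0.75 for Psca with Krt14 and -0.71 for Upk2 with Krt14. These are descriptions, because the cells come from 6 libraries, differ in depth and were chosen with some of these genes. Of the 70, 41 held both Krt5 and Krt15, 10 Krt5 alone, 8 Krt15 alone and 11 neither. Krt14 was seen in 32 cells, and all 32 also held Krt5. Of the 4 uroplakins in the rule, 21 cells held 4, 15 held 3, 6 held 2, 12 held 1 and 16 held 0.

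Promoter windows of the genes that varied together at either end are shown, 250 bases upstream of the RefSeq start on the gene's own strand, build GRCm38.p6. Of 7 genes sought, 4 matched the promoter table used here, and Upk1b, Upk2 and Krt15 are named only. Upk1a lies on the minus strand at chr7:30612735-30612984, Upk3a on the plus strand at chr15:85016891-85017140, Krt5 on the minus strand at chr15:101712906-101713155 and Krt14 on the minus strand at chr11:100206031-100206280. Capitals mark matches, on either strand, to 3 motifs spelled out after the sequences, and neighbouring matches may overlap.
Upk1a: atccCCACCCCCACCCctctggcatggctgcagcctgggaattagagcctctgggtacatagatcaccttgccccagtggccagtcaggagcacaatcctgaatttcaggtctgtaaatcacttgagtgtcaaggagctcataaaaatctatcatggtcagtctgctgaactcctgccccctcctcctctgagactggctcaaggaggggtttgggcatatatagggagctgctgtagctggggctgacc
Upk3a: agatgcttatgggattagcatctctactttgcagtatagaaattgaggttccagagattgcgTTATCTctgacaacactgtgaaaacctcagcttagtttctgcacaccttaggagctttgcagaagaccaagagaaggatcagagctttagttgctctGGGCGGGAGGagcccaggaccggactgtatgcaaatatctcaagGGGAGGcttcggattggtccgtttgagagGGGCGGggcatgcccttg
Krt5: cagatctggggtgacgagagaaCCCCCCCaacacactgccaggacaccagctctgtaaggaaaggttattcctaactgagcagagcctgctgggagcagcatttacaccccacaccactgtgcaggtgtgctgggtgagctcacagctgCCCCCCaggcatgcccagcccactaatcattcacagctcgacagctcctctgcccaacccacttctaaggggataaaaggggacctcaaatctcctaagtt
Krt14: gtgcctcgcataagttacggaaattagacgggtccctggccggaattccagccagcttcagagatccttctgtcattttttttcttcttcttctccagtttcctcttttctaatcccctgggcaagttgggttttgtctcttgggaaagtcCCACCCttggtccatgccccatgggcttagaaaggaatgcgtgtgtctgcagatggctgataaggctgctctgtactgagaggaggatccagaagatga
CCNCCC, a motif of KLF and SP factors, was found 2 times in Upk1a, 4 times in Upk3a, 3 times in Krt5 and 1 time in Krt14, and 64.5% of the 32851 promoter windows in the table hold it. AGATAA, 1 spelling of the GATA factor motif, was found 1 time, in Upk3a, and 9.99% of all windows hold it. Other spellings, such as the TGATAA in the Krt14 window, were not searched, so a lack of GATA motifs in the other windows is not shown. The core promoter motif TATAAA was found in 0 of the 4 windows, and 12.4% of all windows hold it. The matches are letters in a window and were not tied to any measurement here.

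Members were sorted into 3 ranges by the genes of the rule: keratin (at least 2 UMIs of Krt5 plus Krt15 and under 2 of the uroplakins), uroplakin (the reverse) and shared (at least 2 of each). The keratin range held 23 cells (22 unmixed), the shared range 39 (36 unmixed) and the uroplakin range 24 (12 unmixed). Their median depth was 7004, 11958 and 7545 UMIs. The limits are counts not scaled to depth, so a deeper cell enters the shared range more readily. In Vehicle replicate 1, for instance, a cell with 2 uroplakin and 48 keratin UMIs counts as shared. Numbers of cells with a UMI of a gene depend on depth as well. By library, the keratin range held 10, 4 and 4 cells in SH045 replicates 1 to 3, against 4, 1 and 0 in Vehicle replicates 1 to 3. The uroplakin range held 6, 3 and 1 cells in SH045, against 1, 1 and 12 in Vehicle. Vehicle replicate 3 thus had no cell in the keratin range and 12 of 19 in the uroplakin range, 7 of which were mixed. No library had at least 10 cells in both the keratin and the uroplakin range, so the ranges were not tested against each other.

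**Figure D1:**
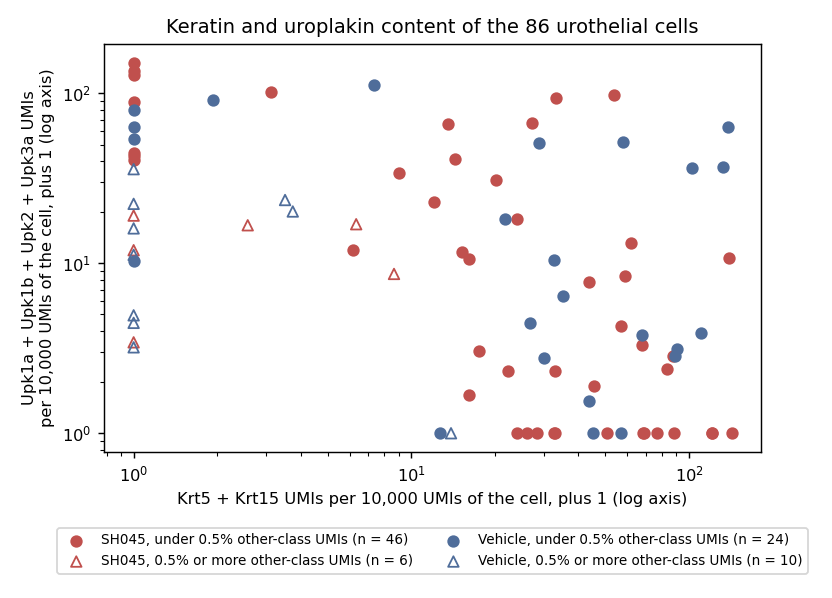
Each point is 1 of the 86 members, with Krt5 plus Krt15 on the x axis and the 4 uroplakins on the y axis, in UMIs relative to the cell's total, plus 1, on log axes. Open triangles are the 16 members with at least 0.5% of UMIs from another class, and 12 of them lie in the uroplakin range.

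Genes outside the rule divided along the same axis, here described in unmixed cells. Krt14 was seen in 18 of 22 cells of the keratin range, 14 of 36 of the shared range and 0 of 12 of the uroplakin range. Its pooled level was 2749 CPM in the keratin range, 548 CPM in the shared range and 0 CPM in the uroplakin range. Trp63, which encodes p63, was seen in 15, 11 and 0 cells of the 3 ranges, at 178, 60.0 and 0 CPM. The transcription factor Sox15 was seen in 17, 19 and 0 cells, the annexin Anxa8 in 18, 26 and 0, and the hyaluronan receptor Cd44 in 16, 19 and 0. Il33, an alarmin cytokine stored in barrier epithelium, was seen in 15, 25 and 0 cells, at 1139, 334 and 0 CPM. The background for these genes in macrophages was 0% of cells for Trp63, 0.0594% for Krt14, 0.911% for Il33 and 20.2% for Cd44. Thinned to 2000 UMIs per cell, Krt14 was still seen in 16 of 22, 11 of 36 and 0 of 12 cells. At that depth Trp63 was seen in only 5, 3 and 0 cells, Cd44 in 9, 4 and 0 and Anxa8 in 9, 7 and 0. Their 0 in the 12 cells of the uroplakin range thus says less than that of Krt14. By library, the keratin range held 2862, 2076 and 2428 CPM of Krt14 in SH045 replicates 1 to 3 and 3843 CPM in Vehicle replicate 1, and the shared range of the same libraries held 961, 122, 723 and 2003 CPM. Krt14 was thus higher in the keratin than the shared range in each of these 4 libraries. Trp63 was not, with 179.9 CPM in the keratin and 218 CPM in the shared range of SH045 replicate 1 and 34.9 and 69.3 CPM in SH045 replicate 3. Il33 was higher in the shared range of SH045 replicate 1, with 327 CPM in the keratin and 576 CPM in the shared range.

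Psca, a surface protein of superficial urothelium, was seen mostly outside the keratin range. It was found in 3 of 22 cells of the keratin range, 27 of 36 of the shared range and 12 of 12 of the uroplakin range, at 17.3, 3607 and 4958 CPM. Between the shared and the uroplakin range it had no single order by library, with 1973 and 5889.9 CPM in SH045 replicate 1, 3115 and 2082 CPM in SH045 replicate 2, 2080.0 and 11353 CPM in SH045 replicate 3 and 6911 and 3501 CPM in Vehicle replicate 3. Snx31, a sorting nexin that handles uroplakins in umbrella cells, was seen in 1, 22 and 12 cells, at 11.5, 263 and 707 CPM. The simple-epithelium keratins Krt8 and Krt18 had higher pooled levels toward the uroplakin range, with 696, 2242 and 5247 CPM for Krt8 and 1012, 2671 and 6639 CPM for Krt18. Unmixed members of Vehicle replicate 3 held 4685 CPM of Krt8 and 5288 CPM of Krt18. In the other libraries they held 1171 to 1628 and 1508 to 2183 CPM. Vehicle replicate 3 gave 5 of the 12 cells of the uroplakin range and 0 of the keratin range, so range and library are not separated in these pooled levels. The cornified envelope precursors Ivl and Sprr1a had pooled levels of 196, 899 and 1906 CPM and of 4278, 11762 and 15783 CPM. Sprr1a was lower in the uroplakin than the shared range in SH045 replicate 2 (3123 and 9833 CPM) and Vehicle replicate 3 (15906 and 22637 CPM), and higher in SH045 replicates 1 and 3. Upk3b, a uroplakin outside the rule, was seen in 0, 18 and 8 cells, and the related Upk3bl in 4, 12 and 0. Krt20, the classical umbrella cell keratin, was seen in only 1, 13 and 3 cells. Ly6d, a small surface protein of stratified epithelia, was seen in 19, 31 and 5 cells, with 5009 and 4851 CPM in the keratin and shared ranges and 343 CPM in the uroplakin range. Within the shared range, Vehicle replicate 3 had 6911 CPM of Psca and 1816 CPM of Ly6d, and Vehicle replicate 1 had 861 CPM of Psca and 3818 CPM of Ly6d.

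**Figure D2:**
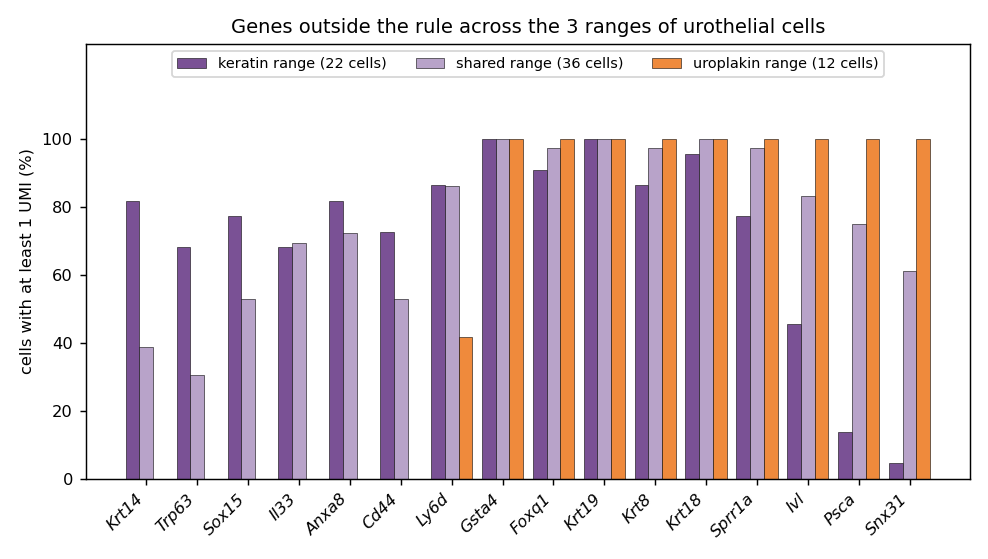
Bars give the percentage of unmixed cells with at least 1 UMI of each gene, for the keratin range (22 cells), the shared range (36 cells) and the uroplakin range (12 cells). Krt14, Trp63, Sox15, Il33, Anxa8 and Cd44 are at 0 in the uroplakin range, while Psca and Snx31 are seen in all 12 of its cells. The percentages are not scaled to depth.

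Some other genes had similar levels in the 3 ranges, such as Krt7, and others were uneven, such as Gstm1, Spp1 and Clu. Krt7, a keratin of simple and transitional epithelia, stood at 2657, 2699.5 and 2623 CPM in the keratin, shared and uroplakin ranges, and Krt19 at 5181, 7063 and 7485 CPM. The transcription factors Foxq1, Gata3 and Foxa1 were seen in each range, with Foxq1 in 20 of 22, 35 of 36 and 12 of 12 cells. The glutathione transferase Gsta4 was seen in all 70 unmixed cells, at 5774, 7821 and 2838 CPM. A related enzyme, Gstm1, was uneven too, with 719 CPM in the keratin range, 15114 CPM in the shared range and 10333 CPM in the uroplakin range. Spp1, the secreted phosphoprotein osteopontin, stood at 466, 5677 and 17282 CPM, and the chaperone Clu at 4583, 13257 and 16126 CPM. For Spp1 and Clu the macrophage background was high, at 39.8% and 19.7% of cells (median depth 3573 UMIs, against 7954 in members). Spp1 also varied between libraries, with 12964, 5064 and 41.5 CPM in unmixed SH045 members against 973, 541 and 7925 CPM in unmixed Vehicle members. Clu did so too, with 6048, 11360 and 3055 CPM in unmixed SH045 members against 12035, 25239 and 22652 CPM in unmixed Vehicle members.

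Cells with at least 5 UMIs of 11 mitotic genes numbered 7 of 70 unmixed members (10%), against 46 of 1779 principal cells (2.59%). In the keratin range they were 5 of 22 cells, in the shared range 2 of 36 and in the uroplakin range 0 of 12. By library they were 3 of 21, 1 of 15 and 2 of 10 in SH045, against 1 of 11, 0 of 1 and 0 of 12 in Vehicle. Cells thinned to 2000 UMIs, with a minimum of 2 UMIs, gave 7 of 70 and 37 of 1779. No test was run on these few cells.

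The share of urothelial cells among kept barcodes was higher on average in SH045, within the spread of mice. It was 0.673%, 0.477% and 0.276% in SH045 replicates 1 to 3 (23, 19 and 10 cells), against 0.290%, 0.0703% and 0.459% in Vehicle replicates 1 to 3 (12, 3 and 19 cells). The groups overlapped, with SH045 replicate 3 under 2 of the 3 Vehicle libraries. The mean was 0.475% ± 0.198 in SH045 and 0.273% ± 0.195 in Vehicle (SD, n = 3 each), a difference of 0.202 percentage points (two-sided exact permutation p = 0.3, where 3 against 3 cannot go below 0.1). How much renal pelvis entered each suspension is not given in the labels, and the share of pelvis and a change in the cells cannot be told apart. Without the mixed members the difference was 0.229 points (exact permutation p = 0.2), and without the shallower copies of shared barcodes it was 0.176 points (p = 0.3, exact permutation).

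**Figure D3:**
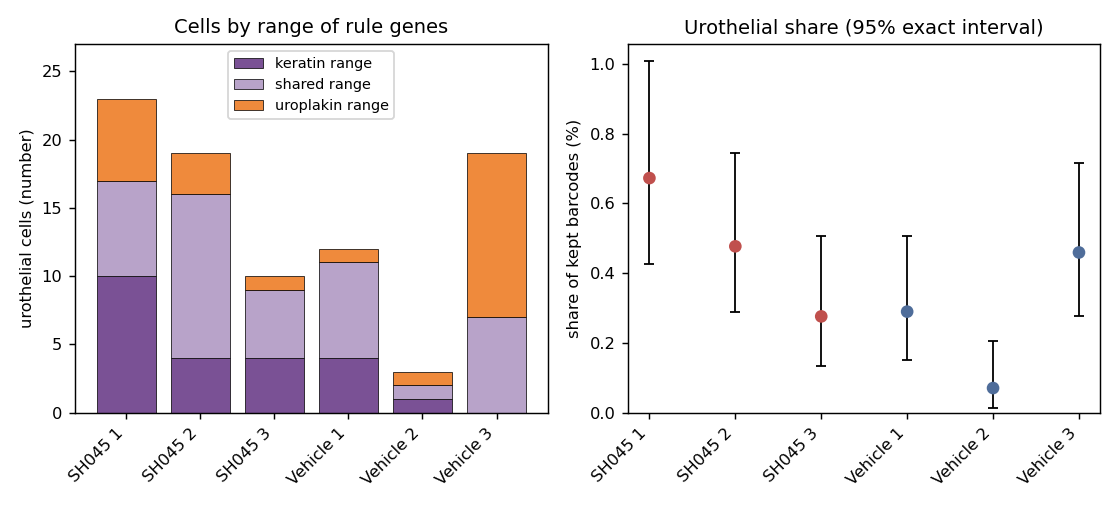
The left panel gives the number of urothelial cells per library, split by range, and the right panel the share of kept barcodes in percent with its 95% exact (Clopper-Pearson) binomial interval, which covers counting error only. Vehicle replicate 3 has no cell in the keratin range, and the shares of the groups overlap.

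Urothelial cells differed from principal cells of the same libraries across much of the transcriptome. UMIs were summed over the cells of each class in the 5 libraries with at least 10 members, which leaves out Vehicle replicate 2, and the classes were compared with library as a block (edgeR quasi-likelihood test, Benjamini-Hochberg limit 0.05). Of 7878 genes tested, 2264 (28.7%) were called, 1042 (13.2%) higher and 1222 (15.5%) lower in urothelial cells. The median log2 fold change over all genes was -0.09. List counts below stand beside these shares, and a count near them is not read as a result about its list. Because members and principal cells were separated by 12 genes of these profiles, the calls describe 2 classes of cells and were not read as evidence for the rule, and the rule genes were not tested. Genes near 0 CPM in principal cells, such as Ly6d, Lamb3, Slc14a1, Shh and Wnt5a, passed the low-count filter only through urothelial cells. They had to differ, so their p values below are not read as support, and their levels are description. With mixed cells of both classes removed, 1753 of 5385 genes were called, and 1569 of the 2264 were among them, all with the same sign. Without the 5% of barcodes with the highest Scrublet (doublet) scores, which take 16 of the 19 members of SH045 replicate 2, 1448 genes were called.

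By fitted log2 fold change, the 10 largest rises were genes with 0 or few UMIs in principal cells, several of them known from barrier epithelia. Sprr2a3, a small proline-rich cornified envelope protein of a near-identical gene family, had 655, 1709 and 955 CPM in SH045 and 214 and 1173 CPM in Vehicle urothelial cells, against 0 CPM in the principal cells of all 5 libraries. Against a floor of 3 UMIs over the group it was at least 4397-fold higher. On the same floor Sptssb, a subunit of serine palmitoyltransferase, was at least 2752-fold higher, and Reg3g, a secreted antibacterial lectin, at least 1741-fold higher. Reg3g was uneven among the urothelial sums, with 159.8, 898 and 130.5 CPM in SH045 and 796 and 276 CPM in Vehicle. Aldh3a1, an aldehyde dehydrogenase known from cornea and stomach, was at least 1636-fold higher, and the calpain Capn13 at least 1016-fold. The gasdermins Gsdmc2 and Gsdmc3 and the aldehyde dehydrogenase Aldh3b2 also had 0 UMIs in principal cells, and reads of the Gsdmc genes may be split among close copies. Ly6d had a mean of 4144 ± 2399 CPM in urothelial and 1.70 ± 1.06 CPM in principal cells (SD, n = 5 libraries each), a log2 fold change of 11.25 ± 0.36 (SE, edgeR adjusted p = 4.47e-13). Vsig2, a membrane protein of the immunoglobulin superfamily, was 2576-fold higher, with an exact 95% counting interval of 708 to 21348 because principal cells held 2 UMIs.

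By fitted log2 fold change, which for a gene at 0 UMIs depends on the prior count, the 10 largest falls were genes with 0 UMIs in the members of these 5 libraries. The 3 members of Vehicle replicate 2, outside the fit, held Atp6v1c2 at 508.8 CPM and Tesc at 31.8 CPM. Trpv5, the apical calcium channel, had 341, 228 and 266 CPM in SH045 and 249 and 324 CPM in Vehicle principal cells, and was at least 84.7-fold lower in urothelial cells. Atp6v1c2, a proton pump subunit of intercalated cells, was at least 43.8-fold lower and Stc1, a secreted glycoprotein hormone, at least 43.5-fold lower. The endothelin gene Edn3 was at least 23.2-fold lower, and Il1f6, Tesc, Tmem171, Npy6r, Limch1 and Phactr1 lay between 24.3-fold and 39.2-fold as bounds. Since 284 principal cells carried distal convoluted tubule markers and 577 intercalated markers, Trpv5 and Atp6v1c2 stand beside those shares, and their part in the result was not tested.

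**Figure D4:**
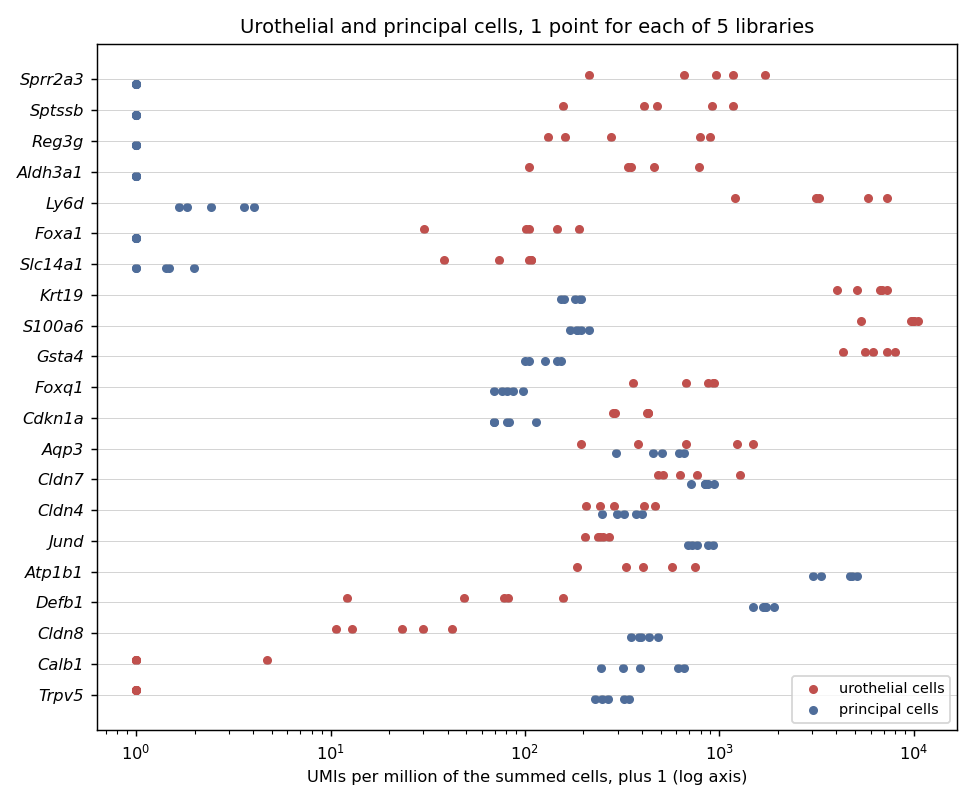
Each point is the summed level of a gene in 1 of 5 libraries, in CPM plus 1 on a log axis, for urothelial cells and for principal cells below them. Sprr2a3, Sptssb, Reg3g, Aldh3a1 and Foxa1 are at 0 in all principal sums, Trpv5 is at 0 in all urothelial sums, and Cldn4 and Cldn7 overlap.

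Most layer genes outside the rule that could be tested were higher in urothelial cells. Over all genes tested, 13.2% were higher and 15.5% lower. Of the 6 uroplakin genes listed, Upk3b and Upk3bl could be tested, and both were higher. Upk3b had a mean of 147 ± 77.4 CPM in urothelial and 0.854 ± 0.636 CPM in principal cells (SD, n = 5 each, log2 fold change 7.56 ± 0.46, edgeR adjusted p = 2.70e-13). Of 16 basal genes, 7 were tested, and 3 were higher (Lamb3, Cd44 and Itga6) and 0 lower, with a median log2 fold change of 3.11. Krt5, Krt15 and Aqp3 passed the filter on low counts but were left out as rule genes. Krt14 did not pass the filter, because Vehicle replicate 3 had 3.72 CPM, against 1289, 420.2 and 1257 CPM in SH045 and 2271 CPM in Vehicle replicate 1. Principal cells had 0 UMIs of Krt14. Of 19 superficial genes, 8 were tested, 7 were higher and 1 was lower, with a median of 3.31. Psca, Krt20, Prss22 and Gsta4 were among the higher genes, and Muc1, a transmembrane mucin, was the lower one. A gene kept by the filter through the class where it was high had to differ, so these counts are no support for the label.

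Many keratins and adhesion genes were higher, beside 13.2% higher and 15.5% lower over all genes tested. Of 15 epithelial keratins, 7 were tested, and Krt19, Krt20, Krt7, Krt8 and Krt18 were higher, with a median of 1.50. The Krt8 call was lost when high Scrublet scores were removed. Krt19 had 4015, 6671 and 5095 CPM in SH045 and 6862 and 7278 CPM in Vehicle urothelial cells, against 158, 181, 153, 192 and 193 CPM in the principal cells of the same libraries. The classes did not overlap (log2 fold change 5.24 ± 0.18, edgeR adjusted p = 1.12e-18). Of 20 desmosome and hemidesmosome genes, 15 were tested, 10 were higher and 0 lower, with a median of 1.40. Lamb3 and Lama3, chains of the laminin that anchors stratified epithelia, had log2 fold changes of 6.97 ± 0.44 and 7.02 ± 0.58 (edgeR adjusted p = 5.84e-13 and 1.44e-10). Of 17 tight junction genes, 13 were tested, 2 were higher and 3 lower, with a median of -0.11. Cldn8, the paracellular claudin of the collecting duct, averaged 22.8 ± 12.9 CPM in urothelial and 409.9 ± 50.6 CPM in principal cells (log2 fold change -3.89 ± 0.25, SD, n = 5 each, edgeR adjusted p = 8.85e-13), and Cldn3 and Cldn6 were lower too. Cldn4 and Cldn7 overlapped between the classes, with edgeR adjusted p of 0.713 and 0.656.

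Transcription factors moved both ways, beside 13.2% higher and 15.5% lower over all genes tested. Of 20 factors listed as urothelial, 14 were tested, 10 were higher and 0 lower, with a median of 1.33. Foxa1, a pioneer factor of endoderm-derived epithelia, had 144, 104 and 189.8 CPM in SH045 and 29.1 and 101 CPM in Vehicle urothelial cells, against 0 UMIs in principal cells, so it was at least 515-fold higher. Pparg, which drives urothelial differentiation, averaged 89.1 ± 38.2 CPM in urothelial and 0.471 ± 0.524 CPM in principal cells (SD, n = 5 each). Foxq1 and Klf5 were 9.61-fold and 10.9-fold higher on pooled counts. Gata3, which both lineages express, was higher by 0.67 ± 0.17 on the log2 scale (edgeR adjusted p = 0.00281), in 4 of 5 libraries. Of 23 collecting duct identity genes, 14 were tested, 13 were lower and 0 higher, with a median of -2.92. Tfcp2l1, the master factor of collecting duct epithelium, averaged 8.71 ± 9.31 CPM in urothelial and 677 ± 37.7 CPM in principal cells. Calb1, a calcium buffer, and Avpr2, the vasopressin receptor, each had 1 UMI in urothelial cells, 414-fold lower (exact 95% counting interval 74.2 to 16336) and 216-fold lower (38.7 to 8529.8).

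Transport genes moved both ways, beside 13.2% higher and 15.5% lower over all genes tested. Of 19 sodium and water transport genes, 10 were tested, 3 were higher and 6 lower, with a median of -1.71. The sodium pump subunit Atp1b1 was lower, with a log2 fold change of -3.13 ± 0.34 (edgeR adjusted p = 2.32e-04), while Fxyd3, a regulator of the pump, averaged 1504 ± 366 CPM in urothelial and 27.7 ± 14.1 CPM in principal cells (edgeR adjusted p = 6.64e-04). Slc14a1, the urea transporter UT-B known from bladder urothelium, had 72.2, 104 and 107 CPM in SH045 and 107 and 37.2 CPM in Vehicle urothelial cells, against at most 0.984 CPM in principal cells (log2 fold change 7.62 ± 0.59, edgeR adjusted p = 4.62e-11). Of 18 mechanosensing and TRP channel genes, 9 were tested, 0 were higher and 4 lower, among them Trpm7 and Piezo1. Piezo1 was higher in 1 library and lower in 4, and its call was lost under several settings. Trpc6 had 0 UMIs in the 86 members and in the 1779 principal cells, which by counting error alone allows a share of cells with a UMI of up to 3.49% in urothelial and 0.169% in principal cells. It had a UMI in 25 of all 23578 kept barcodes.

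Several signalling genes typical of urothelium were higher, beside 13.2% higher and 15.5% lower over all genes tested. Of 24 hedgehog, Wnt and BMP genes, 11 were tested, 6 were higher and 1 lower, with a median of 1.22. Shh, the ligand that urothelium sends to the underlying mesenchyme, had 25.8, 23.0 and 35.6 CPM in SH045 and 29.1 and 14.9 CPM in Vehicle urothelial cells, against 0 to 0.984 CPM in principal cells (log2 fold change 5.98 ± 0.78, edgeR adjusted p = 7.50e-07). Wnt5a, a secreted Wnt ligand, was higher by 5.07 ± 0.36 on the log2 scale (edgeR adjusted p = 4.23e-12), and Wnt4, Wnt7b, Bmp3 and Bmp7 were also higher. Shh and Wnt5a passed the low-count filter only through urothelial cells, so their p values are not read as support. Of 18 growth factor and receptor genes, 11 were tested, with 3 higher (Pdgfa, Egfr and Tgfa) and 3 lower (Btc, Met and Fgfr2). The Pdgfa call was lost without Vehicle replicate 1 and the Met call without mixed cells. Of 16 genes of TGF-beta and its activation, 10 were tested, with 3 higher (Ltbp4 and Tgfb1 among them) and 4 lower (Tgfbr1, Itgav, Itgb6 and Tgfb2), a median of -0.01. Of 27 matrix and basement membrane genes, 17 were tested, with 7 higher, among them Lamb3, Lama3 and Lama5, and 6 lower, among them Col4a1, Col4a2, Col4a3 and Col4a4.

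Injury genes were not uniform, beside 13.2% higher and 15.5% lower over all genes tested. Of 27 injury and wound keratinocyte genes, 17 were tested, 10 were higher and 2 lower, with a median of 2.05. S100a6, a calcium-binding protein, averaged 9102 ± 2125 CPM in urothelial and 189 ± 15.9 CPM in principal cells (log2 fold change 5.74 ± 0.21, SD, n = 5 each, edgeR adjusted p = 3.47e-18). Sprr1a averaged 8326 ± 5783 CPM in urothelial and 57.4 ± 31.1 CPM in principal cells. The tubular injury genes Lcn2, Spp1 and Clu were not called, with edgeR adjusted p of 0.115, 0.910 and 0.212. Of 12 genes of p53 and arrest, 10 were tested, with 4 higher and 1 lower. Cdkn1a, which encodes the cell cycle inhibitor p21, had 283, 426 and 291 CPM in SH045 and 427 and 425 CPM in Vehicle urothelial cells, against 79.7, 68.0, 68.5, 81.5 and 113 CPM in principal cells (log2 fold change 2.35 ± 0.17, edgeR adjusted p = 1.24e-11). Gdf15, a stress cytokine, went the other way, with a mean of 7.92 ± 6.35 CPM in urothelial and 152 ± 17.7 CPM in principal cells. Of 20 cell cycle genes, 12 were tested, and Ube2c and Birc5 were higher, calls that were lost without 1 library and without 3 libraries in turn.

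Defence genes went both ways, beside 13.2% higher and 15.5% lower over all genes tested. The chemokine and interferon counts rest on few genes and are not read as results about those lists. Of 22 antimicrobial genes, 9 were tested, with Reg3g, Wfdc2, Rnase4 and C3 higher and Defb1 lower. The Wfdc2 call was lost when high Scrublet scores were removed. Defb1, the constitutive defensin of distal tubule, averaged 74.4 ± 53.2 CPM in urothelial and 1699.6 ± 150.4 CPM in principal cells (log2 fold change -4.56 ± 0.40, SD, n = 5 each, edgeR adjusted p = 8.26e-05). Of 23 chemokines and cytokines, 4 were tested, and Il1rn was higher and Cxcl16 lower, the call of Cxcl16 being lost without SH045 replicate 3. Il33 did not pass the filter, and had 335, 299 and 925 CPM in SH045 and 980 and 3.72 CPM in Vehicle urothelial cells, against at most 1.64 CPM in principal cells. Of 17 antigen presentation genes, 14 were tested, and the class I pathway genes B2m, H2-D1, H2-K1, Psmb8 and Psmb9 were higher, with 0 lower and a median of 0.97. The H2-D1 and H2-K1 calls were lost when high Scrublet scores were removed. Of 20 interferon response genes, 9 were tested, with 2 higher (Irf1 among them) and Irf9 lower, and the Irf9 call was lost under 8 alternatives and the Irf1 call under 3.

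Detoxification genes were mostly higher, beside 13.2% higher and 15.5% lower over all genes tested. Of 26 glutathione and xenobiotic genes, 22 were tested, 15 were higher and 3 lower, with a median of 1.03. Gsta4 averaged 6282 ± 1433 CPM in urothelial and 126 ± 24.0 CPM in principal cells (log2 fold change 5.81 ± 0.18, SD, n = 5 each, edgeR adjusted p = 1.53e-19). The quinone reductase Nqo1 was higher by 4.78 ± 0.26 and the aldose reductase Akr1b3 by 5.31 ± 0.22 on the log2 scale. The metallothionein Mt1, Srxn1 and Gclc were lower. Of 16 retinoic acid genes, 5 were tested, with 4 higher (Dhrs3, Rarg and Rdh10 among them) and 0 lower. Of 13 prostaglandin genes, 8 were tested, 4 were higher and Ptger1 was lower. Slco2a1, the prostaglandin transporter, averaged 101 ± 93.4 CPM in urothelial and 1.77 ± 1.13 CPM in principal cells. Of 16 immediate early genes, which respond to tissue dissociation, 14 were tested, with 3 higher and 3 lower and a median of -0.03.

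Within urothelial cells, SH045 was set against Vehicle in 3 against 2 libraries, since Vehicle replicate 2 held 3 members. The 3277 genes tested included rule genes that passed the low-count filter. Of these 3277, 0 (0%) were called by edgeR's quasi-likelihood test, 163 had an unadjusted p under 0.05, and DESeq2 called 8. Among the 8 were Umod, H2-Ab1, Trf, Ckb, Igfbp2 and Slc12a1. H2-Ab1, an MHC class II chain, had 119, 46.0 and 53.4 CPM in SH045 against 301 and 1601.5 CPM in Vehicle, and 91.0, 44.9 and 53.4 CPM in SH045 against 328 and 173 CPM in Vehicle without mixed members. The count rested on the libraries, because without Vehicle replicate 1 it was 136, without Vehicle replicate 3 it was 81 and without SH045 replicate 1 it was 2. With a single Vehicle library left, that library was assumed to vary like the others. The layer genes were not called. Krt14 had an edgeR adjusted p of 0.999 and Psca of 0.971, and both spread as widely within Vehicle (2271 and 3.72 CPM for Krt14, 534 and 5139.7 CPM for Psca) as between the groups. Of the lists, the medians ranged from -1.22 for antigen presentation (10 genes tested) to 0.85 for mechanosensing and TRP channels (3 genes tested), against 0.00 over all genes tested. The class II genes H2-Aa, H2-Ab1 and Cd74 and the macrophage markers are among the genes that define mixed members. A drop in their values without those members follows in part from the definition. H2-Aa had a log2 fold change of -4.32 and Cd74 of -3.73, against -2.03 and -1.69 without mixed members (edgeR adjusted p = 0.922 for both with them, 0.198 and 0.173 without). Summed macrophage markers were at 2197 CPM in Vehicle replicate 3, and at 435 CPM without its mixed members.

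Of the 10 genes with the smallest unadjusted p, 9 are described. Dlat, a subunit of pyruvate dehydrogenase, had 124, 121 and 136 CPM in SH045 against 19.4 and 22.3 CPM in Vehicle urothelial cells, while principal cells had 118, 125 and 106 CPM in SH045 and 101 and 98.4 CPM in Vehicle. Its log2 fold change was 2.48 ± 0.49 (edgeR adjusted p = 0.169). Igfbp2, an IGF-binding protein, had 196, 144 and 291 CPM in SH045 against 0 and 29.8 CPM in Vehicle, and Gpx2, an epithelial glutathione peroxidase, had 77.3, 92.1 and 219 CPM in SH045 against 19.4 and 3.72 CPM in Vehicle. Hn1 and Apoe, an apolipoprotein, had log2 fold changes of -1.54 ± 0.32 and -1.86 ± 0.32, with edgeR adjusted p of 0.176 and 0.167. Aqp3 was tested too and was among the 10. As a gene of the rule it helped to decide which barcodes were members, so its p is not read as a result. It had 675, 1232 and 1483 CPM in SH045 against 379 and 194 CPM in Vehicle urothelial cells.

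For 4 of the 9 genes, values are given with and without mixed members. Apoe had 77.3, 121 and 77.1 CPM in SH045 against 369 and 305 CPM in Vehicle, and 78.9, 103 and 77.1 CPM in SH045 against 284 and 178 CPM in Vehicle without mixed members. Its log2 fold change was then -1.38 (edgeR adjusted p = 0.534), and within the shared range -0.91 (edgeR adjusted p = 0.890). Slc12a1, the sodium transporter of the thick ascending limb, had 5.15, 0 and 0 CPM in SH045 against 175 and 63.3 CPM in Vehicle, and 0 UMIs in the 69 unmixed members of these 5 libraries. Slc12a1 is itself one of the markers that define mixed members. Ckb, a creatine kinase, had 0 UMIs in SH045 and 35 UMIs in Vehicle, of which 1 library's 4.68 CPM was left without mixed members. Ptprc, the leukocyte antigen CD45, had 15.5, 5.76 and 11.9 CPM in SH045 against 67.9 and 201 CPM in Vehicle, and 76.5 and 23.4 CPM in unmixed Vehicle members.

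**Figure D5:**
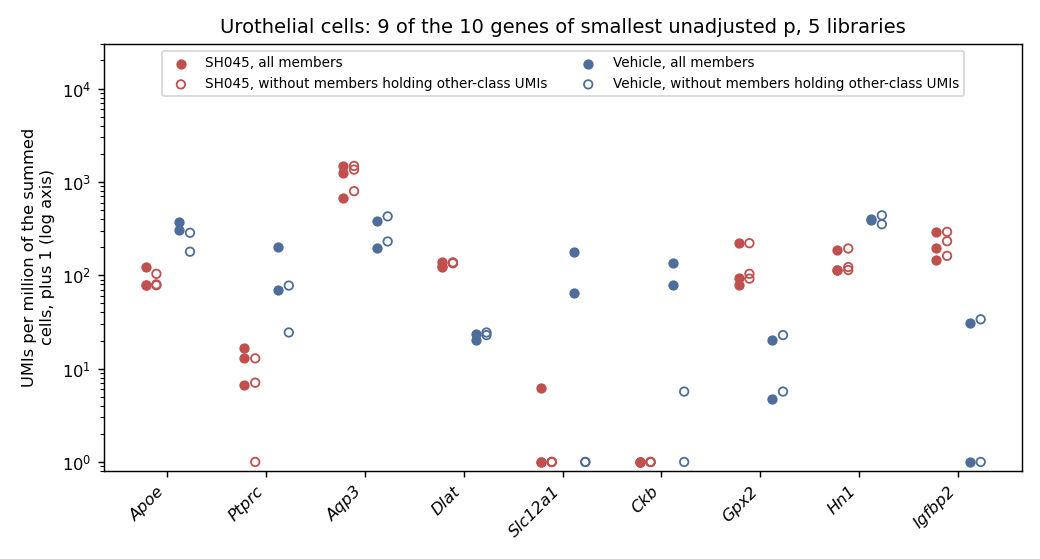
For 9 of the 10 genes with the smallest unadjusted p, points give CPM plus 1 on a log axis in 3 SH045 libraries and 2 Vehicle libraries, filled for all members and open for unmixed members. In unmixed Vehicle members Slc12a1, a marker that defines mixed members, is at 0, and Ckb is at 0 and 4.68. Because the genes were picked by p, separation of the groups here is not read as a result.

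The change with SH045 was also compared between urothelial and principal cells, as an interaction in 1 model over both classes. Of 9595 genes tested, 8 (0.0834%) were called, 2 with a more positive and 6 with a more negative change in urothelial cells, and 401 had an unadjusted p under 0.05. Igfbp2 differed by 7.40 ± 1.14 on the log2 scale (edgeR adjusted p = 0.0301), since principal cells ran the other way with 0.984, 0 and 1.42 CPM in SH045 against 26.4 and 7.34 CPM in Vehicle. Camk2n1, an inhibitor of CaM kinase II, had 30.9, 51.8 and 35.6 CPM in SH045 against 146 and 156 CPM in Vehicle urothelial cells, and 347, 347 and 304 CPM in SH045 against 213 and 250.3 CPM in Vehicle principal cells, a difference of -2.47 ± 0.44 (edgeR adjusted p = 0.00411). Sprr2g, of the near-identical Sprr2 family, differed by -2.05 ± 0.37 (edgeR adjusted p = 0.00411). Trf, transferrin, differed by 3.91 ± 0.81 (edgeR adjusted p = 0.0301) and had 191, 322 and 741 CPM in SH045 against 48.5 and 26.1 CPM in Vehicle urothelial cells. With mixed cells of both classes removed, Igfbp2, Camk2n1 and Sprr2g were still called (edgeR adjusted p = 0.0331, 0.0377 and 0.0341). Trf was not, with a difference of 3.66 ± 1.47 (edgeR adjusted p = 0.983).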

How the data were processed

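Single-cell RNA was measured in 6 libraries, 1 obstructed kidney each, SH045 (n = 3) and Vehicle (n = 3). The authors deposited raw UMI counts per gene and barcode, and the genome build was mm10 per the submitters' processing notes. The sources used here do not name the aligner or counting program. Every deposited barcode held at least 2166 UMIs. The members, gene lists and cell markers were chosen with earlier results of these data known.

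Counts were summed per library and class and tested with edgeR 4.0.16 (TMM, default low-count filter, robust quasi-likelihood) under R 4.3.3 in libraries with at least 10 members, tested beforehand on simulated data. Alternatives were DESeq2 1.42.0 (size factors and test), no filter, other cell limits, Scrublet scores (scanpy 1.11.5), leaving out libraries, a replicate block and removal of a transcript length trend. Removal of mixed members, removal of shared barcodes and a fit of the shared range were added after seeing the data. Apart from libraries left out, each alternative kept the libraries of the main fit, also where fewer than 10 members remained. SH045 replicate 2 kept 3 with high Scrublet scores removed, Vehicle replicate 3 kept 6 with the C1q limit of 1 UMI, and SH045 replicate 3 kept 5 in the shared range. The part of lost cells in a lost call was not tested. Named genes were the genes of the rule, Trpc6, the 10 largest rises and falls among called genes with the same direction in every library (no gene models, sex-linked or mitochondrial genes), the 4 genes of smallest p per list, and in SH045 against Vehicle the 10 of smallest p. Layer genes are described across ranges, and a few list members were named after their values were seen. Doublets were not removed in the results as given. Some items are not reported here. Floors of 3 UMIs and 95% intervals cover counting error only.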

Additional observations from a re-analysis of the deposited data

Results flagged for a closer look

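In 8 genes the change with SH045 differed between urothelial and principal cells by an interaction test, and each value below is the urothelial log2 change minus the principal log2 change. Umod, the thick ascending limb protein uromodulin, was at -6.28, with 10.3, 5.76 and 5.93 CPM in SH045 against 1941 and 276 CPM in Vehicle urothelial cells. Without mixed cells it was at 0.76 (edgeR adjusted p = 1), and unmixed Vehicle members had 0 and 4.68 CPM. Slc12a1, of the same segment, was at -9.05 and had 0 UMIs in unmixed members of the 5 libraries fitted. Umod and Slc12a1 are among the markers that define mixed cells, so their loss without those cells follows in part from the definition. Ckb was at -10.02, and at -4.49 without mixed cells (edgeR adjusted p = 0.983). The leukocyte gene Ptprc was at -3.49, and at -2.62 without mixed cells (edgeR adjusted p = 0.983).

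Camk2n1 was at -2.47 and Sprr2g at -2.05, and both were called without mixed cells but not with high Scrublet scores removed, and Sprr2g not with DESeq2. Sprr2g had 536, 322 and 349.9 CPM in SH045 against 524 and 831 CPM in Vehicle urothelial cells, and 102, 122 and 106 CPM in SH045 against 34.6 and 56.1 CPM in Vehicle principal cells. Igfbp2 was at 7.40, and at 8.04 without mixed cells. Trf was at 3.91, and at 3.66 ± 1.47 (SE) without mixed cells, where it was not called. Of macrophages, 76.2% hold a Trf UMI, whose part in the result was not tested. Ptprc, Trf, Igfbp2, Camk2n1, Sprr2g and Slc12a1 each lost the call without at least 1 of the SH045 libraries.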

How the results depend on the processing

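The urothelial share was higher in SH045 under each alternative run, by 0.0707 (high Scrublet scores removed) to 0.284 percentage points (C1q limit of 1 UMI), and by 0.101 to 0.302 points without 1 library. As a replicate block the difference was 0.202 points (exact sign-flip p = 0.5, which cannot go below 0.25). The labels do not say whether replicate numbers pair the mice. Deviations of same-numbered libraries correlated at -0.04 and -0.19. With 2 Vehicle libraries in the fits, these values cannot decide whether the mice were paired. In urothelial cells, SH045 against Vehicle gave 8 calls with DESeq2, 71 with no filter, 1 with a minimum of 6 urothelial UMIs, 3 with the C1q limit of 1 UMI, 1 with the replicate block, 1 in the shared range alone and 0 to 136 without 1 library. Urothelial against principal cells gave 1448 calls with high Scrublet scores removed and 1866 to 2406 without 1 library. Within the library block, replicate numbers add nothing to that comparison. The interaction gave 5 calls with DESeq2, 21 with no filter, 4 with high Scrublet scores removed and 3 to 93 without 1 library. Reversed values were Ccl5 in urothelial against principal cells, 0.97 in the fit as reported, at -0.095 with DESeq2, -0.83 to 1.46 without 1 library (lowest without Vehicle replicate 3) and -1.25 without mixed cells, Irgm1 at -0.18 with the C1q limit of 1 UMI, and Umod in the interaction at 0.76 without mixed cells. Umod is itself a marker that defines mixed cells, and the causes of the reversals were not tested. Keratin cells against uroplakin cells were not run, because no library had 10 cells of both. Depth was limited by the 86 cells, as 3 in Vehicle replicate 2 left 2 Vehicle libraries in the fits.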
